A study of Mus musculus with 54 samples.

Results

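The genes described here are 10 of the 25149 genes in the deposited tables, taken by their symbols from the families that guide cell movement and contact. They are the semaphorins Sema7a, Sema6d, Sema3a and Sema4b, the plexins Plxna1, Plxnb2 and Plxnc1, the neuropilin Nrp1, the Eph receptor Epha4 and the ephrin Efnb2. Each of the 10 symbols had 1 row in the count table and 1 row in the TPM table. The wider semaphorin, plexin, neuropilin, Eph and ephrin families held 53 genes of the tables.

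RNA of individual follicle sides was sequenced in 54 libraries by Smart-Seq2, a protocol that amplifies cDNA from very small samples. Secondary follicles from CD-1 female mice aged 14 to 16 days grew for 8 days in alginate, a gel that holds them in shape. All follicles then spent 12 h in a medium with serum, EGF and FSH, and only the post-hCG groups also received hCG, human chorionic gonadotropin, which acts at the receptor for luteinizing hormone. The groups were the putative unruptured side without hCG (n = 15), the putative ruptured side without hCG (n = 14), the unruptured side post-hCG (n = 12) and the ruptured side post-hCG (n = 13). Without hCG the sides were told apart by their shape and optical density before any rupture, hence putative, whereas post-hCG they were separated at the opening itself. These follicles were cultured outside the ovary, without a blood supply. The labels do not say which sides shared a follicle, a mouse or a batch, so the p-values measure the spread between libraries, part of which may be technical.

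Total counts ran from 1497071 to 2834734 per library, with group medians of 2362975, 1744896, 2134078 and 2192172 in the order of the groups above. The tissue label reads cumulus-oocyte complex, while the methods state that these complexes were discarded. Of 10 oocyte markers, among them Gdf9, Bmp15, Zp1, Zp2 and Zp3, those 5 had a median of 0 TPM in each group. The summed level of the 10 ran from 0 to 21.4 TPM in 53 libraries and was 135 TPM in putative unruptured replicate 1 without hCG. Leaving out the 2 libraries whose sum was over 10 TPM changed no call of a member. No 2 libraries of a group repeated each other within sampling noise.

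Semaphorins are secreted or membrane-bound ligands that bind plexins, and most secreted semaphorins of class 3 need a neuropilin as coreceptor. Eph receptors are tyrosine kinases that bind ephrins on neighbouring cells, so both signal at cell contacts. Both systems are best known for steering axons, and they also act on vessel growth, immune cells and the adhesion between cells. In the ovary, hCG acts mainly on mural granulosa and theca cells, which line the follicle wall, and starts both the rupture of the wall and the luteinization of its cells.

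The promoters of the members whose levels rose or fell most with hCG are shown, since those changes are the largest described below. The windows are the 250 bases upstream of the RefSeq start sites in GRCm38.p6, a patch of the build to which the reads were aligned, and are written along the gene's strand. Capitals mark every match to 6 motifs searched on both strands, the CRE (TGACGTCA), its shorter core (TGACG, which lies inside the CRE), AP-1 (TGANTCA), the NR5A monomer site (AAGGTCA), RUNX (TGTGGT) and the GC box (GGGCGG). Sema7a lies at chr9:57939862-57940111 on the plus strand, Efnb2 at chr8:8661243-8661492 on the minus strand and Plxnc1 at chr10:94944846-94945095 on the minus strand. The Sema6d window, on the plus strand, lies at chr2:124089719-124089968, before the first of 2 RefSeq starts, the other being inside the gene.
Sema7a: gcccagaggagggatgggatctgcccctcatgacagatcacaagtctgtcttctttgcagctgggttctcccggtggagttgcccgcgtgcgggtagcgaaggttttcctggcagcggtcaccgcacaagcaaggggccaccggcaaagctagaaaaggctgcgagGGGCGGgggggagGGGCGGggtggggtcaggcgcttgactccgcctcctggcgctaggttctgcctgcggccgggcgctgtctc
Efnb2: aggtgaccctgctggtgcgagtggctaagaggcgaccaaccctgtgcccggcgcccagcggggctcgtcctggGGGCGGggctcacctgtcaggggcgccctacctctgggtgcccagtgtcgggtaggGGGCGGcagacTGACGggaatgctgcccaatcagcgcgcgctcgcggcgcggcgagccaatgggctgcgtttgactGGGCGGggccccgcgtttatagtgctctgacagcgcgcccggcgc
Plxnc1: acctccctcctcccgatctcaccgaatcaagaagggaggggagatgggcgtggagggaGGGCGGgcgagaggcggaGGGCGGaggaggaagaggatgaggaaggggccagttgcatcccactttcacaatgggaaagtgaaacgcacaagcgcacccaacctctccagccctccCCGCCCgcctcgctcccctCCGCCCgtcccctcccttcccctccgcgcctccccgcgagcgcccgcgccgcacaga
Sema6d: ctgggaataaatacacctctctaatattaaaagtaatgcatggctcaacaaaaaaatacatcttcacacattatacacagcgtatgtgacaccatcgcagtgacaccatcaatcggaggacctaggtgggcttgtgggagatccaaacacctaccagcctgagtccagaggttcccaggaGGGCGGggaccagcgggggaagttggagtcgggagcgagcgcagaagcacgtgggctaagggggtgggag

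Of the 2 genes that rose most, Sema7a held 2 GC boxes, and Efnb2 held 3 GC boxes and 1 copy of the shorter CRE core. Plxnc1, which fell, held 4 GC boxes. The Sema6d window shown held 1 GC box. None of the windows shown held the full CRE, AP-1, the NR5A site or RUNX. The window before the other Sema6d start, which is not shown, held 1 RUNX match and no GC box. For comparison, 32.7% of 32851 RefSeq windows of the same length held a GC box, 17.8% the shorter CRE core, 14% RUNX, 6.75% AP-1, 4.08% the NR5A site and 1.55% the full CRE. These are matches of letters, with no measurement of binding.

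Levels between genes were compared in TPM, which is scaled by transcript length. Without hCG, the plexin Plxnb2 and the semaphorin Sema4b had the highest medians on both sides, and Efnb2 the lowest. Post-hCG, Sema7a stood behind Sema4b and Plxnb2 on the unruptured side and first on the ruptured side, and Sema6d was last on both sides, within the spread of Plxnc1 on the unruptured side. In the ruptured post-hCG libraries the ranges of the first 3 genes, Sema7a, Plxnb2 and Sema4b, overlapped, so their order was within the spread. The plot of member levels shows each library.

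**Figure D1:**
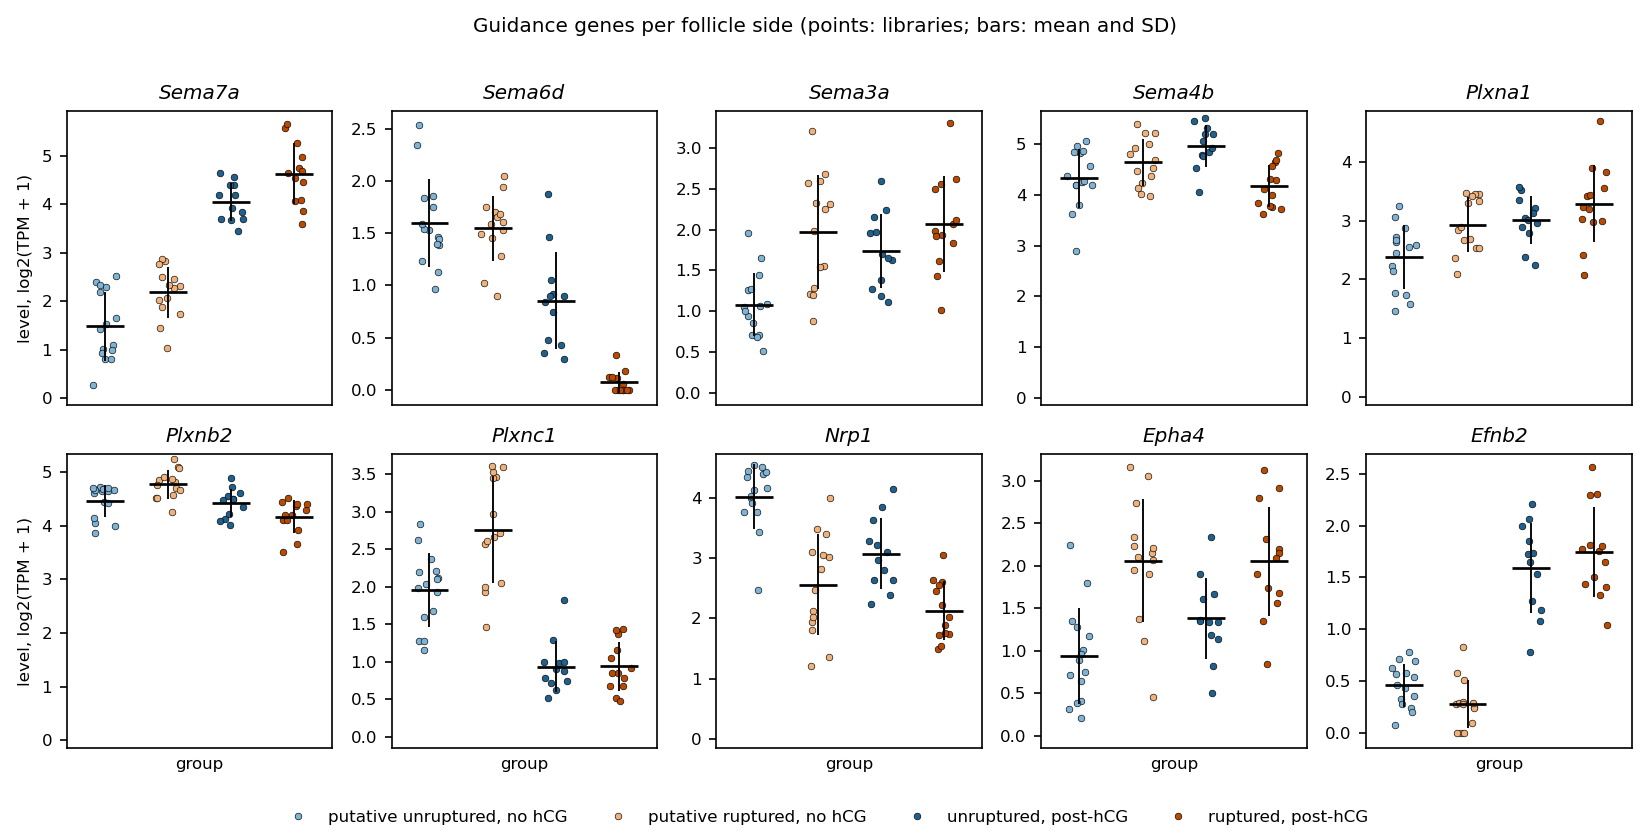
Each panel shows 1 of the 10 genes in log2(TPM + 1) on the vertical axis, with 1 point per library, colours for the 4 groups from left to right, and black bars for the mean and SD. Sema7a and Efnb2 stand higher in both post-hCG groups, Plxnc1 stands lower in both, and Sema6d is close to 0 only on the ruptured side post-hCG.

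Sema7a (chr9:57940112-57962865, plus strand) encodes a membrane-anchored semaphorin that binds the plexin Plxnc1 and integrins of the beta-1 class. Its level was 0.20 TPM at the lowest, 1.70 TPM at the median and 4.72 TPM at the highest library on the putative unruptured side, and 1.04, 3.90 and 6.30 TPM on the putative ruptured side. Post-hCG the lowest, median and highest were 9.96, 15.7 and 24.1 TPM on the unruptured side, and 11.1, 24.2 and 49.3 TPM on the ruptured side. Every post-hCG library of a side thus lay above every no-hCG library of that side. Among the 9888 genes that averaged 1 TPM or more, 3.74% had such separate, higher groups on the unruptured side, against 3.03% for the ruptured one. With hCG, Sema7a rose 10.1-fold on the unruptured side (log2FC 3.34, SE 0.17, edgeR FDR = 5.18e-17) and 6.99-fold on the ruptured side (log2FC 2.81, SE 0.19, edgeR FDR = 3.05e-14). Between the sides it was higher on the ruptured one in both media, with overlapping groups. That difference was 1.38 on the log2 scale without hCG (SE 0.23, edgeR FDR = 7.03e-05) and 0.83 post-hCG (SE 0.13, edgeR FDR = 2.72e-05). On log2(TPM + 1), limma gave 0.70 (FDR = 0.039) and 0.58 (FDR = 0.034), and both missed the threshold when no filter on low values was used (FDR = 0.080 and 0.066). Of the 14 putative ruptured libraries, 13 lay above the median of the putative unruptured ones, and post-hCG 11 of 13 ruptured libraries did so. The 2 side differences were not shown to differ from each other (interaction log2FC −0.54, 95% interval −1.07 to −0.01, edgeR FDR = 0.20).

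Plxnc1 (chr10:94790866-94944835, minus strand), the plexin that binds Sema7a, changed with hCG in the other direction. Without hCG its lowest, median and highest levels were 1.24, 3.11 and 6.15 TPM on the putative unruptured side and 1.76, 5.48 and 11.2 TPM on the putative ruptured side. The post-hCG values were 0.43, 0.86 and 2.53 TPM on the unruptured side and 0.40, 0.81 and 1.70 TPM on the ruptured side. The 13 ruptured post-hCG libraries all lay below the 14 putative ruptured ones, and 3.88% of the 9888 genes had such separate, lower groups. On the unruptured side 10 of 12 post-hCG libraries lay below the lowest no-hCG library. The fall with hCG was 3.26-fold on the unruptured side (log2FC −1.71, SE 0.23, edgeR FDR = 2.34e-07) and 6.16-fold on the ruptured side (log2FC −2.62, SE 0.22, edgeR FDR = 5.68e-12). Without hCG, Plxnc1 was 2.28-fold higher on the putative ruptured side (log2FC 1.19, SE 0.23, edgeR FDR = 4.63e-04). Post-hCG the sides did not differ beyond the spread (log2FC 0.26, 95% interval −0.11 to 0.63, edgeR FDR = 0.34), while the change of the side difference missed the threshold (log2FC −0.93, SE 0.33, edgeR FDR = 0.070).

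Setting ligand beside receptor within each library, the ratio of Sema7a to Plxnc1 TPM had medians of 0.47 (putative unruptured) and 0.62 (putative ruptured). Post-hCG the medians were 19.2 (unruptured) and 25.8 (ruptured). The ratio was above 1 in 5 of 15 and 1 of 14 no-hCG libraries and in all 12 and all 13 post-hCG libraries. Its highest no-hCG value, 3.58, lay below its lowest post-hCG value, 7.98. The beta-1 integrin gene Itgb1, a subunit of its other receptors, had group medians of 173, 112, 144 and 121 TPM, far above Plxnc1 in each group. The alpha integrin gene Itga1 had group medians of 0.72, 0.645, 0.275 and 0.20 TPM, below Plxnc1 in each group.

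**Figure D2:**
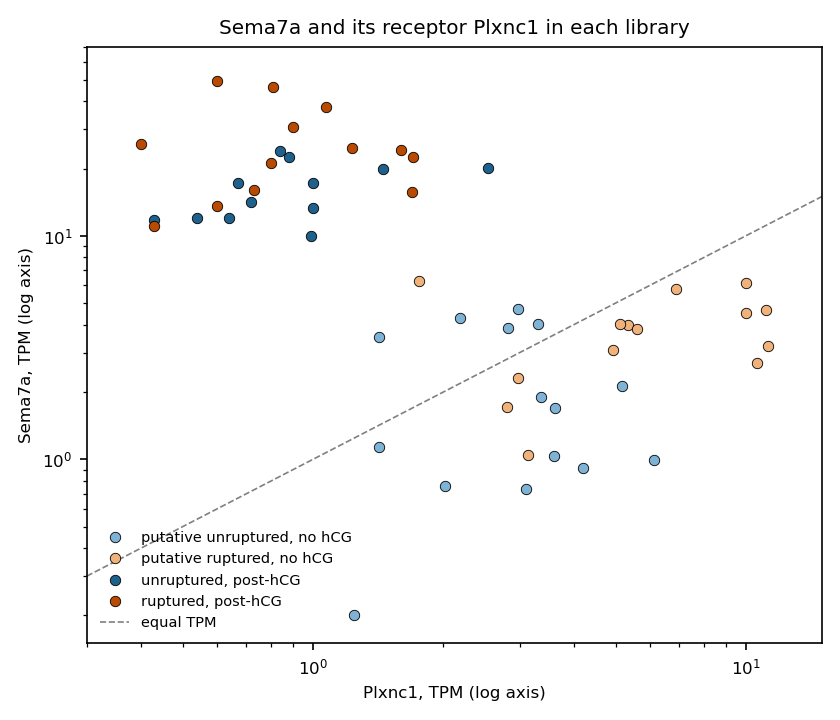
Each point is 1 library, with Plxnc1 TPM on the horizontal and Sema7a TPM on the vertical log axis, coloured by group, and the dashed line marks equal TPM. All post-hCG libraries lie above the line, at ratios from 7.98 upward, and the no-hCG libraries lie on either side of it.

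Sema6d (chr2:124089969-124667770, plus strand) encodes a transmembrane semaphorin that binds plexins of class A. Without hCG its lowest, median and highest levels were 0.96, 1.89 and 4.83 TPM on the putative unruptured side and 0.87, 2.04 and 3.13 TPM on the putative ruptured side. After hCG they were 0.23, 0.83 and 2.68 TPM on the unruptured side. On the ruptured side 7 of 13 libraries were at 0 and the highest was at 0.26 TPM. In counts, the 13 ruptured post-hCG libraries held 11 in all and at most 4 in 1 library, against 157 in the 12 unruptured post-hCG libraries, 642 in the 15 putative unruptured and 433 in the 14 putative ruptured ones. The sides did not differ beyond the spread without hCG (log2FC −0.06, 95% interval −0.40 to 0.28, edgeR FDR = 0.86). With hCG, Sema6d fell 2.70-fold on the unruptured side (log2FC −1.43, SE 0.23, edgeR FDR = 4.81e-06) and 32.9-fold on the ruptured side (log2FC −5.04, SE 0.32, edgeR FDR = 4.64e-15). The second fold rests on 11 counts and depends on how low counts are treated.

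The fall of Sema6d therefore differed between the sides. The interaction was −3.63 on the log2 scale (SE 0.46, 95% interval −4.56 to −2.71, edgeR FDR = 3.81e-07), a 12.4-fold gap between the responses. Without the library of highest Sema6d level in 1 group at a time, it ran from −4.05 to −3.39. On the compressed scale of log2(TPM + 1), limma gave −0.73 (SE 0.20, FDR = 0.014). Post-hCG, Sema6d was under the count filter for the comparison of sides, and without a filter edgeR gave a log2FC of −3.67 (SE 0.44, FDR = 7.48e-08). There, 12 of 13 ruptured libraries lay below the lowest unruptured library and 1 overlapped. Theca and stroma markers also stood lower on that side: the medians of Col1a1, Col3a1, Col1a2 and Dcn were 9.47, 247, 11.8 and 10.6 TPM on the unruptured side and 0.20, 3.67, 0.31 and 0.31 TPM on the ruptured side. The whole list of 11 summed to a median of 481 TPM (316 to 1464) on the unruptured side and 303 TPM (133 to 477) on the ruptured side, with Lhcgr, the receptor of hCG, at 147 and 295 TPM, and 2 and 5 of the 11 were at a median of 0. In bulk libraries, fewer cells of a type and less RNA per cell cannot be told apart. Those 4 genes were also lower on the putative ruptured side without hCG, at 3.25, 17.0, 2.69 and 10.2 TPM against 28.5, 381, 32.0 and 48.9 TPM, where Sema6d did not differ beyond the spread. Their part in the Sema6d result was not tested.

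Sema3a (chr5:13125414-13602565, plus strand) encodes a secreted class 3 semaphorin that repels axons and signals through Nrp1 and class A plexins. Its lowest, median and highest levels were 0.43, 1.08 and 2.90 TPM on the putative unruptured side, and 0.84, 3.37 and 8.23 TPM on the putative ruptured side. Post-hCG the values were 1.17, 2.20 and 5.03 TPM on the unruptured and 1.02, 2.95 and 8.90 TPM on the ruptured side, so the groups overlapped throughout. Sema3a was 2.003-fold higher on the putative ruptured side (log2FC 1.00, SE 0.19, edgeR FDR = 2.73e-04), where 13 of 14 libraries lay above the median of the other side. It also rose 2.001-fold with hCG on the unruptured side (log2FC 1.00, SE 0.18, edgeR FDR = 2.63e-05). Smaller differences passed the test on counts only. They were 0.71 between the sides post-hCG (edgeR FDR = 0.0075) and 0.72 with hCG on the ruptured side (edgeR FDR = 0.0021). On log2(TPM + 1), limma gave 0.33 (FDR = 0.24) and 0.10 (FDR = 0.76) for the same comparisons, and 4 of 13 ruptured post-hCG libraries lay above the putative ruptured median.

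Nrp1 (chr8:128358604-128503363, plus strand), the coreceptor of Sema3a and also of VEGF, was lower on the ruptured side in both media. Its lowest, median and highest levels without hCG were 4.54, 16.5 and 22.3 TPM on the putative unruptured side and 1.33, 5.31 and 14.9 TPM on the putative ruptured side. After hCG the levels were 3.72, 7.20 and 16.6 TPM on the unruptured side, and 1.82, 3.09 and 7.28 TPM on the ruptured side. The groups overlapped, but none of the 14 putative ruptured libraries and 1 of the 13 ruptured libraries reached above the median of the opposite side. The difference was 2.66-fold without hCG (log2FC −1.41, SE 0.26, edgeR FDR = 2.84e-04) and 1.86-fold post-hCG (log2FC −0.89, SE 0.21, edgeR FDR = 0.0019). With hCG, Nrp1 fell 2.08-fold on the unruptured side (log2FC −1.06, SE 0.21, edgeR FDR = 7.80e-05), and on the ruptured side its log2FC of −0.54 missed the threshold (95% interval −1.10 to 0.02, edgeR FDR = 0.091).

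The median summed levels of markers of theca, endothelial and immune cells, which also express Nrp1, were lower on the ruptured sides too. The 11 theca and stroma markers summed to a median of 534 TPM (37.4 to 2783) on the putative unruptured side and 93.9 TPM (20.7 to 571) on the putative ruptured side, with 0 and 2 of the 11 at a median of 0. Post-hCG the medians were the 481 and 303 TPM given above. Of these markers, Lhcgr and Ptch1 went the other way without hCG. Their medians were 3.81 and 2.58 TPM on the putative unruptured side and 10.7 and 2.92 TPM on the putative ruptured side. The 9 endothelial markers summed to medians of 9.83, 4.15, 18.9 and 12.2 TPM in the 4 groups (ranges 2.35 to 21.4, 1.81 to 16.0, 5.83 to 34.7 and 4.82 to 25.2), and 0, 3, 2 and 4 of the 9 were at a median of 0. Kdr, a defining endothelial gene, was at a median of at most 0.14 TPM in any group, and Tek was at 0 in 3 of the 4. Tie1 went the other way without hCG, at medians of 0.05 TPM on the putative unruptured and 0.12 TPM on the putative ruptured side. The 8 immune markers summed to medians of 30.8, 1.40, 12.7 and 0.75 TPM (ranges 0.11 to 150, 0 to 34.3, 1.18 to 96.7 and 0.08 to 3.83), and 4, 7, 4 and 6 of the 8 were at a median of 0. On the unruptured sides nearly all of it was Lyz2, at medians of 29.7 and 10.5 TPM, and Ptprc, the pan-leukocyte gene, was at a median of 0 in each group. Their part in the Nrp1 difference was not tested. Within each library the ratio of Sema3a to Nrp1 TPM had medians of 0.065 and 0.58 without hCG (putative unruptured, putative ruptured) and 0.25 and 0.89 post-hCG (unruptured, ruptured).

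Sema4b (chr7:80186841-80226527, plus strand), a transmembrane semaphorin of class 4, was among the 3 most abundant members in each group. In its lowest, median and highest library Sema4b stood at 6.41, 18.4 and 32.3 TPM on the putative unruptured side and 14.7, 23.4 and 41.1 TPM on the putative ruptured side. The post-hCG values were 15.6, 30.8 and 44.9 TPM on the unruptured side, and 11.4, 16.3 and 27.3 TPM on the ruptured side. The order of the sides thus differed between the media, with overlapping groups. Without hCG the log2FC of 0.37 missed the threshold (95% interval 0.05 to 0.69, edgeR FDR = 0.098), and post-hCG Sema4b was 1.44-fold lower on the ruptured side (log2FC −0.53, SE 0.12, edgeR FDR = 0.0020), where all 13 libraries lay below the median of the unruptured side. Sema4b rose with hCG on the unruptured side (log2FC 0.55, SE 0.15, edgeR FDR = 0.0029) and fell on the ruptured side (log2FC −0.34, SE 0.13, edgeR FDR = 0.029). The fall was not past the threshold without putative ruptured replicate 3 (log2FC −0.30, edgeR FDR = 0.051), nor the rise when libraries were scaled by their totals only (log2FC 0.33, edgeR FDR = 0.092). The difference between these responses passed the test itself (interaction log2FC −0.89, SE 0.21, edgeR FDR = 0.0034).

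Plxnb2 (chr15:89155549-89180788, minus strand), a plexin of the class that receives class 4 semaphorins, ranked first among the members without hCG and second post-hCG. Its lowest, median and highest levels were 13.6, 24.0 and 25.6 TPM on the putative unruptured side and 18.1, 26.6 and 37.0 TPM on the putative ruptured side. After hCG they were 15.2, 21.4 and 28.6 TPM on the unruptured side, and 10.4, 17.5 and 21.8 TPM on the ruptured side, again with overlap. Plxnb2 was higher on the putative ruptured side (log2FC 0.35, SE 0.09, edgeR FDR = 0.0075), a call that was lost under 3 kinds of alternative. Without the 8 and 1 libraries of these groups whose immune markers summed to over 30 TPM the log2FC was 0.22 (edgeR FDR = 0.27), with library totals only it was 0.29 (edgeR FDR = 0.050, just over the threshold), and on log2(TPM + 1) limma gave 0.31 (FDR = 0.079). It fell with hCG on the ruptured side (log2FC −0.42, SE 0.08, edgeR FDR = 3.47e-05), where all 13 libraries lay below the putative ruptured median. On the unruptured side the log2FC with hCG was −0.01 (95% interval −0.21 to 0.19, edgeR FDR = 0.92), and between the sides post-hCG it was −0.07 (95% interval −0.23 to 0.09, edgeR FDR = 0.57). The interaction of −0.42 passed (SE 0.12, edgeR FDR = 0.020), but not without the 8, 1 and 3 libraries of the first 3 groups whose immune markers summed to over 30 TPM (log2FC −0.30, edgeR FDR = 0.20). The ratio of Sema4b to Plxnb2 TPM had medians of 0.98 and 0.99 without hCG and 0.99 on the ruptured side post-hCG, while on the unruptured side post-hCG it was 1.60 and lay above 1 in all 12 libraries.

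Plxna1 (chr6:89316314-89362620, minus strand), a plexin that signals for class 3 semaphorins with neuropilins and also receives Sema6d, was higher on the ruptured side and higher post-hCG. Its lowest, median and highest levels were 1.74, 4.86 and 8.56 TPM on the putative unruptured side and 3.24, 6.30 and 10.1 TPM on the putative ruptured side. Post-hCG the values were 3.75, 7.15 and 10.9 TPM on the unruptured side and 3.23, 8.43 and 25.1 TPM on the ruptured side. All groups overlapped, and 1 ruptured post-hCG library stood above 25 TPM. On counts the log2FC was 0.60 between the sides without hCG (edgeR FDR = 2.72e-05), 0.49 post-hCG (edgeR FDR = 3.45e-04), 0.83 with hCG on the unruptured side (edgeR FDR = 8.31e-09) and 0.74 on the ruptured side (edgeR FDR = 5.00e-08), with SEs from 0.09 to 0.10. On log2(TPM + 1) only the change with hCG on the unruptured side passed, while limma gave FDR = 0.051, 0.34 and 0.16 for the others. An exon of Plxna1 overlaps Gm26811 on the other strand, and exons of Plxnc1 and Nrp1 overlap Gm48718 and Mir1903 on the same strand, so shared reads of these pairs cannot be told apart here.

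Epha4 (chr1:77367185-77515088, minus strand) encodes an Eph receptor that binds ephrins of both classes, Efnb2 included. The Epha4 level was lowest, median and highest at 0.15, 0.86 and 3.72 TPM on the putative unruptured side and 0.37, 3.37 and 7.98 TPM on the putative ruptured side. After hCG the levels were 0.42, 1.54 and 4.05 TPM on the unruptured side and 0.80, 3.27 and 7.75 TPM on the ruptured side. Groups overlapped, but 13 of 14 putative ruptured and 12 of 13 ruptured libraries lay above the median of the opposite side. Epha4 was 3.85-fold higher on the putative ruptured side (log2FC 1.94, SE 0.28, edgeR FDR = 1.07e-05) and 2.33-fold higher on the ruptured side post-hCG (log2FC 1.22, SE 0.26, edgeR FDR = 8.38e-04). It rose 2.03-fold with hCG on the unruptured side (log2FC 1.02, SE 0.30, edgeR FDR = 0.0055), a rise that did not pass on log2(TPM + 1) (limma log2FC 0.44, FDR = 0.081). On the ruptured side the log2FC was 0.31 (95% interval −0.18 to 0.80, edgeR FDR = 0.28). Mural granulosa markers also differed between the sides without hCG: the 8 summed to a median of 2640 TPM (820 to 5453) on the putative unruptured and 10441 TPM (3491 to 17441) on the putative ruptured side, nearly all of it Inha and Inhba. Post-hCG the sums were 1405 TPM (901 to 1948) on the unruptured and 1183 TPM (762 to 1441) on the ruptured side, nearly all of it Inha, at medians of 1333 and 1051 TPM. The medians of Fshr, Inhba, Foxl2, Nr5a2 and Hsd17b1 were higher on the ruptured side post-hCG, as that of Epha4 was, with Inhba at 17.1 and 25.7 TPM and Nr5a2 at 52.7 and 58.4 TPM. Amh was at a median of 0 in each group, and Cyp19a1, at 2.75 and 40.5 TPM without hCG, was at 0 in both post-hCG groups. The part of these cells in the Epha4 difference was not tested.

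Efnb2 (chr8:8617434-8661242, minus strand) encodes a transmembrane ephrin best known from arterial endothelium. Lowest, median and highest levels of Efnb2 were 0.05, 0.38 and 0.72 TPM on the putative unruptured side and 0, 0.21 and 0.77 TPM on the putative ruptured side, where 3 of 14 libraries were at 0. Post-hCG they were 0.72, 2.23 and 3.62 TPM on the unruptured side, and 1.06, 2.38 and 4.91 TPM on the ruptured side. On the ruptured side the media did not overlap, and 3.03% of the 9888 genes that averaged 1 TPM or more had such separate, higher groups. On the unruptured side 11 of 12 post-hCG libraries lay above the highest no-hCG library. Efnb2 rose 5.71-fold with hCG on the unruptured side (log2FC 2.51, SE 0.27, edgeR FDR = 2.42e-09) and 12.4-fold on the ruptured side (log2FC 3.63, SE 0.28, edgeR FDR = 5.52e-13). Group totals were 101 and 41 counts without hCG and 372 and 493 post-hCG, so the no-hCG levels rest on few counts. The difference between the responses missed the threshold (interaction log2FC 1.13, SE 0.44, edgeR FDR = 0.094). Between the sides post-hCG the log2FC was 0.36 (95% interval −0.09 to 0.82, edgeR FDR = 0.26), and without hCG Efnb2 was under the count filter. Of the 9 endothelial markers, Cldn5, Cdh5 and Egfl7 had higher medians post-hCG on both sides. For Egfl7 the medians went from 5.75 to 5.965 TPM on the unruptured side and from 3.175 to 3.34 TPM on the ruptured side. Cldn5 had medians of 0.37 and 0.25 TPM without hCG and 8.65 and 6.14 TPM post-hCG, and Cdh5 of 0.72 and 0.37 TPM without hCG and 2.42 and 1.14 TPM post-hCG. The median of Pecam1 went from 0.34 to 0.68 TPM on the unruptured side and from 0.12 to 0.10 TPM on the ruptured side, and those of Kdr and Tek were at most 0.14 TPM in any group. Esam and Emcn went down on the unruptured side, from 0.86 to 0.28 TPM and from 0.21 to 0 TPM. On the ruptured side both were at a median of 0 in each medium. The median of Tie1 went from 0.05 to 0.135 TPM on the unruptured side and from 0.12 to 0 TPM on the ruptured side. The part of endothelial cells in the Efnb2 rise was not tested.

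The members were chosen with earlier results of these data known, so counts over them are a description and test nothing about the families. Counted over the members, 6 of the 9 tested were higher on the putative ruptured side without hCG, 1 was lower and 2 did not pass. Of all 9063 genes tested there, 17.8% passed, 8.84% as higher and 8.96% as lower. Post-hCG, 4 of 9 tested members were higher on the ruptured side, 2 lower and 3 did not pass, beside 21.4% of 8585 genes, 10% higher and 11.3% lower. Sema7a, Sema3a, Plxna1 and Epha4 passed as higher in both media and Nrp1 as lower. The median log2FC of the tested members was 0.60 without hCG and 0.36 post-hCG, and that of all genes was −0.01 and 0.01. No member had separate groups between the sides. Of the 9888 genes that averaged 1 TPM or more, 0.0303% were separate and higher and 0% separate and lower without hCG, and 0.131% and 1.00% post-hCG.

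With hCG, 6 of 10 members rose on the unruptured side, 3 fell and 1 did not pass, where 53.1% of 9320 genes passed, 25.4% as higher and 27.7% as lower. On the ruptured side 4 rose, 4 fell and 2 did not pass, where 60.1% of 8531 genes passed, 29.7% as higher and 30.4% as lower. In the test on counts, Sema7a, Sema3a, Plxna1 and Efnb2 rose on both sides, and Sema6d and Plxnc1 fell on both. The rise of Sema3a on the ruptured side was not seen in TPM, where its median went from 3.37 to 2.95 TPM. The median log2FC of the members was 0.69 and −0.01, and of all genes −0.03 and 0.00. More genes changed with hCG than not, so a call alone sets no gene apart in these comparisons. Sema7a and Efnb2 were the members with separate, higher groups on the ruptured side, and Sema6d and Plxnc1 those with separate, lower groups. Of the 9888 genes that averaged 1 TPM or more, 3.03% were separate and higher there and 3.88% separate and lower. On the unruptured side Sema7a alone was separate and higher, beside 3.74% of the genes, and no member was separate and lower, while 1.37% of the genes were. In the interaction, 3 of 10 members passed, all in the negative direction, beside 8.91% of 10013 genes, 4.25% positive and 4.65% negative. The comparisons of sides and of media share groups, so their calls are not independent of each other.

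**Figure D3:**
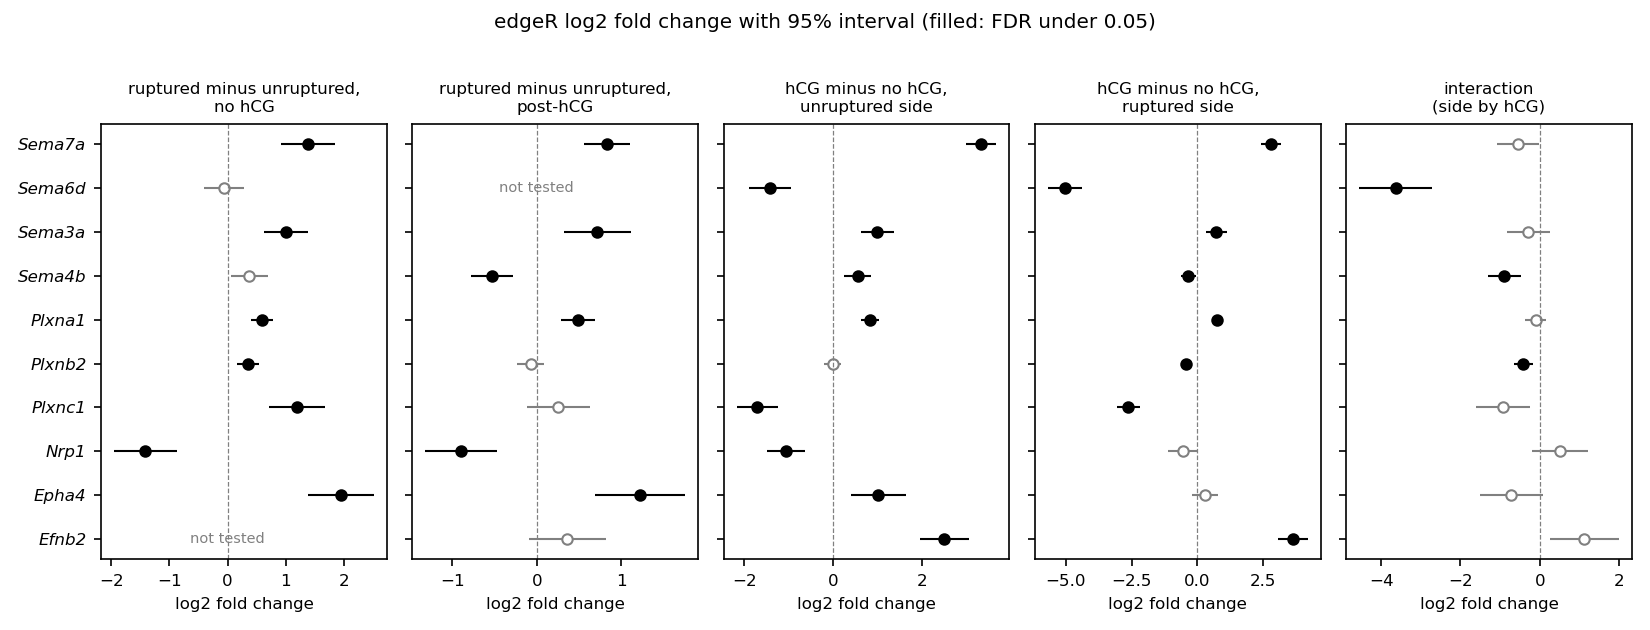
Each panel shows 1 of the 5 comparisons, with the edgeR log2FC of each gene on the horizontal axis, its 95% interval as a line, filled points for FDR under 0.05 and open grey points for the rest. Sema7a is to the right of 0 in the first 4 panels, and Sema6d lies farthest to the left in the interaction, at −3.63.

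Over the wider families, read beside the shares of all genes given above, 27 of the 53 genes were tested between the sides without hCG, of which 10 were higher on the putative ruptured side and 3 lower. Post-hCG 27 were tested, with 8 higher and 5 lower. With hCG, 10 of 29 rose and 8 fell on the unruptured side, and 9 of 28 rose and 11 fell on the ruptured side. In the interaction 6 of 32 passed, 2 positive and 4 negative. Median log2FC of the tested genes was 0.23, 0.19, 0.03, −0.06 and −0.23 in the 5 comparisons. These families include the 10 members, and the lists too were chosen with earlier results known, so these counts are also a description.

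Other ligands of the families changed in other ways than Sema7a. Sema5a, a transmembrane semaphorin, had the highest median semaphorin level without hCG, 51.5 and 62.8 TPM, and fell 5.53-fold and 11.2-fold with hCG (edgeR FDR = 3.36e-09 and 1.40e-19) to 7.75 and 4.37 TPM. Sema3c, another class 3 semaphorin, was 2.88-fold higher on the putative ruptured side (median 49.2 against 13.5 TPM, edgeR FDR = 3.46e-06) and 1.64-fold higher on the ruptured side post-hCG (edgeR FDR = 0.0011). Sema4f rose 6.08-fold and 6.02-fold with hCG on the unruptured and ruptured sides (edgeR FDR = 2.16e-08 and 1.05e-08). Of the receptors, Nrp2, the other neuropilin, was 2.10-fold lower on the ruptured side post-hCG (edgeR FDR = 0.0086), and its log2FC without hCG did not pass. Epha3 rose 3.02-fold and 6.97-fold with hCG (edgeR FDR = 3.20e-07 and 8.55e-11), at medians of 1.16 and 1.47 TPM post-hCG. Ephb4, a receptor of Efnb2, had the highest median of the Eph receptors in 3 of the 4 groups, with medians from 4.06 to 5.66 TPM over the 4, and passed in none of the 5 comparisons.

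**Figure D4:**
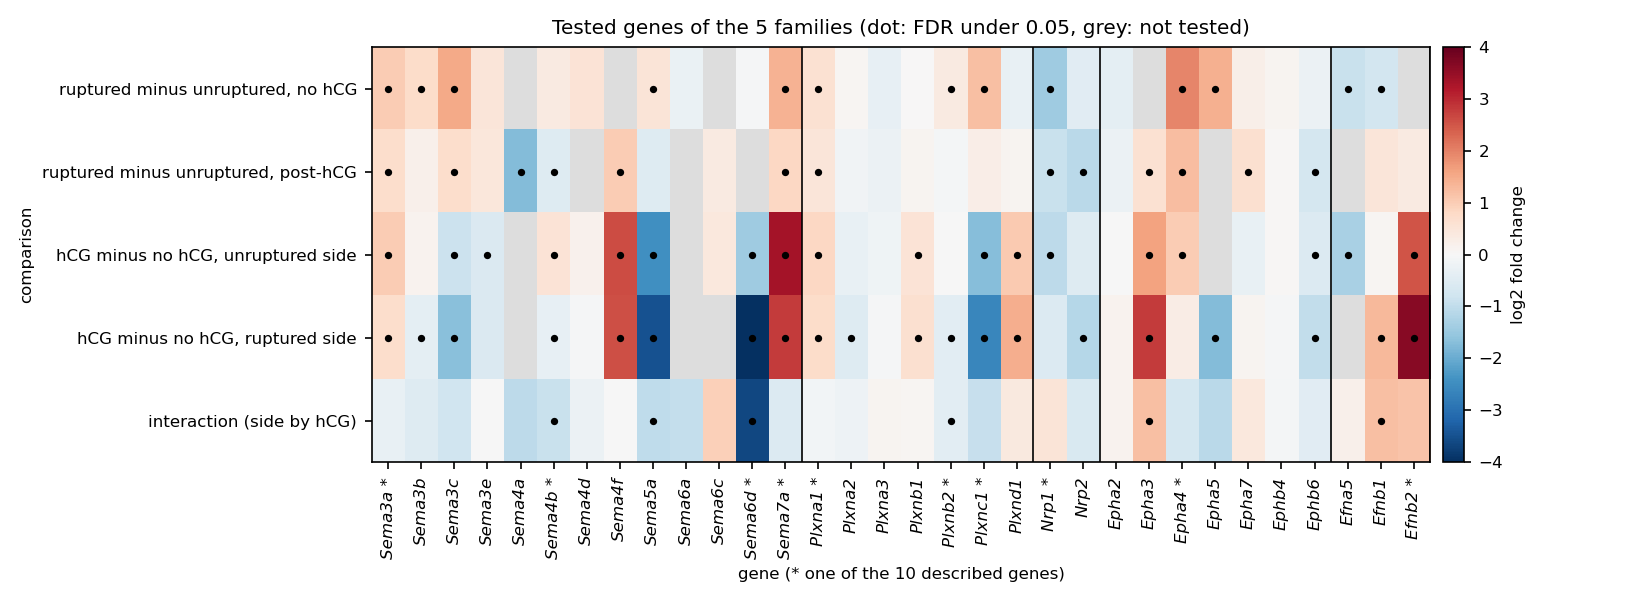
Rows are the 5 comparisons and columns the tested genes of the 5 families, with colour for the edgeR log2FC, clipped at −4 and 4, dots for FDR under 0.05, grey for genes not tested and a star behind the 10 genes described. Sema7a and Efnb2 are red and Sema5a, Plxnc1 and Sema6d blue in both rows of hCG minus no hCG.

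The genes whose log2(TPM + 1) followed Sema7a most closely over the 54 libraries, among 9888 genes, were Slc6a6 (Pearson r = 0.93), Rgcc (r = 0.93) and Crispld2 (r = 0.92). For Sema6d they were Cpq (r = 0.89), Syne2 (r = 0.89) and Kank1 (r = 0.88). With each group's mean taken away, the closest were Synpo (r = 0.59), Man2a1 (r = 0.53) and Nudt4 (r = 0.53) for Sema7a, and Usp54 (r = 0.63), Btbd3 (r = 0.63) and Ddx42 (r = 0.62) for Sema6d. The first set shares the differences between groups, and both share library depth, so these values describe likeness only.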

How the data were processed

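Paired-end Smart-Seq2 reads were aligned by the authors to GRCm38 (HISAT2), and batch effects in the counts were removed with ComBat-seq before they ran DESeq2. The deposited tables hold estimated counts and TPM values that the authors made per gene and library. The counting program, the annotation, the batches and whether the deposited counts precede the correction are not given in the sources used here. Of the non-zero counts, 72.2% were whole, and all were rounded. Genes passing edgeR's filter (minimum count 10, minimum total 15) were scaled by TMM. The quasi-likelihood test of edgeR 4.0.16 (R 4.3.3) was run on the groups compared, and on all 4 for the interaction, with Benjamini-Hochberg FDR over all genes tested and a threshold of 0.05. A positive log2FC means higher on the ruptured side or post-hCG. The test was tried on simulated counts. Alternatives used DESeq2 1.42.0, limma 3.58.1 on log2(TPM + 1) or log2(TPM + 0.1), other scalings, filters, thinned counts, a replicate block and left-out libraries. The 2 alternatives without libraries rich in oocyte or immune markers were added after seeing the data. All 10 members are named. Other family and partner genes were named if past the threshold with a group median of at least 1 TPM, up to 10 per comparison by size of log2FC. Ephb4, Itgb1, Itga1, Nrp2 and the marker genes were named for their role. The members and lists were chosen with earlier results of these data known. Gene positions are GENCODE's on GRCm38. Promoters come from RefSeq, which matched 9 of the 10 members.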

Additional observations from a re-analysis of the deposited data

Results flagged for a closer look

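In the interaction, which subtracts the side difference without hCG from that post-hCG, 8.91% of all 10013 genes tested passed edgeR's FDR of 0.05. Genes outside the members are named here because they passed, so their number was fixed by that rule and tests nothing. Of the genes named, 11 passed, so that their response to hCG differed between the sides. Of the members these were Sema6d (log2FC −3.63), Sema4b (−0.89) and Plxnb2 (−0.42). Of the wider families they were Sema5a (−1.03), Epha3 (1.20) and Efnb1 (1.20). Among signal partners and other guidance genes they were Robo2 (−1.45), Mical2 (−1.01), Dpysl5 (−0.999), Robo1 (−0.84) and Itgb1 (0.70). Efnb1, an ephrin close to Efnb2, was 1.65-fold lower on the putative ruptured side without hCG (edgeR FDR = 0.0033), and its median rose there from 3.56 to 7.20 TPM with hCG. Robo1 and Robo2, receptors of Slit ligands, had medians of 8.73 and 10.5 TPM on the putative ruptured side and of 4 and 0.61 TPM on the ruptured side post-hCG. The causes were not tested.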

How the results depend on the processing

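Over the alternatives for each member in each comparison, with the Sema6d interaction left out, 585 values kept their direction and their side of the threshold. Of the rest, 30 lost their call or had no FDR, 1 gained a call and 6 changed sign. The number of members called between the sides without hCG was 7 and became 4 with limma on log2(TPM + 1) without a filter. None of the values that changed sign passed the test. Sema6d between the sides without hCG was 0.061 without the libraries rich in immune markers, and Plxnb2 with hCG on the unruptured side was 0.0027 with thinned counts. Epha4 with hCG on the ruptured side was −0.015 with library totals only and −0.0092 with limma on log2(TPM + 1), with and without its filter. Library totals only moved the median log2FC of all genes to −0.14 between the sides post-hCG, −0.25 and −0.33 with hCG on the unruptured and ruptured sides and −0.11 in the interaction. No scaling turned the direction of a called member. Nrp1 with hCG on the ruptured side was then past the threshold (−0.86, FDR = 0.0098) and Sema3a was not (0.39, FDR = 0.098). The interaction of Sema6d was past the threshold in every alternative run, from −4.05 to −0.73, and from −4.05 to −3.39 when 1 library was left out. The value of −0.73 is limma's on the compressed scale of log2(TPM + 1), so it cannot be set beside log2 fold changes of counts. Plxnb2 lost its interaction without a filter (−0.40, FDR = 0.077). The causes of lost calls were not tested.

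The replicate number as a block gave −3.64 for the interaction of Sema6d and 0.044 for Plxnb2 with hCG on the unruptured side, and it changed no call of a member. The deviations of same-numbered libraries had median correlations from −0.08 to 0.05, and single pairs of sides without hCG ran from −0.24 to 0.41. These values cannot decide whether the numbers pair the samples, since sides that share a follicle need not deviate together over all genes. Counts of at most 4 per library limit Sema6d on the ruptured side post-hCG, and levels of Efnb2 without hCG are limited in the same way.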

Other observations

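Beside semaphorins and ephrins, a list of 22 other guidance genes was read in the same libraries, and 21 of them were in the tables. The list holds netrins, Slits and their receptors, and also Rgma, Rgmb, Draxin, Flrt1, Flrt2 and Flrt3. Between the sides without hCG, 4 of the 12 tested were higher on the putative ruptured side and 3 lower, beside 17.8% of all genes tested that passed in either direction. Robo1 and Robo2, receptors of Slit ligands, were 2.37-fold and 2.21-fold higher there (edgeR FDR = 6.65e-06 and 3.72e-05), and Robo4, a Robo of endothelial cells, was 2.23-fold lower (edgeR FDR = 4.77e-04). Post-hCG 1 of 9 was higher and 2 were lower, beside 21.4% of all genes. The ligand Slit2 was 1.90-fold lower on the ruptured side (medians 2.97 and 8.55 TPM, edgeR FDR = 1.59e-04), and Flrt2, an adhesion protein that binds Unc5 receptors, 2.37-fold lower (edgeR FDR = 5.30e-04). With hCG, 4 of 10 rose and 5 fell on the unruptured side, and 4 of 9 rose and 5 fell on the ruptured side, where 53.1% and 60.1% of all genes passed. Robo2 fell 4.90-fold and 13.3-fold (edgeR FDR = 7.71e-11 and 2.23e-15), and Flrt2 3.42-fold and 5.27-fold (edgeR FDR = 1.66e-08 and 3.45e-13).

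Of 27 signal partners of plexins and Eph receptors, 2 of 19 tested were higher and 1 lower on the putative ruptured side, and 1 of 17 higher and 3 lower on the ruptured side post-hCG, both near the 17.8% and 21.4% of all genes that passed there. With hCG, 2 of 19 rose and 10 fell on the unruptured side, and 3 of 15 rose and 9 fell on the ruptured side, beside the same 53.1% and 60.1% of all genes. Dpysl3, a cytosolic protein of the family that relays semaphorin signals, had medians of 35.3 and 29.9 TPM without hCG and fell 8.70-fold and 11.7-fold (edgeR FDR = 8.48e-14 and 2.19e-15). Mical2, an enzyme that oxidises actin, fell 2.52-fold and 5.05-fold (edgeR FDR = 4.94e-06 and 1.99e-12). These lists share the groups of the members' comparisons.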
